A study of Mus musculus with 12 samples.

Results

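The genes described are the cell-surface and secreted cues that steer growing axons, and the receptors that read them. They were taken by name, without use of their values: all semaphorins (Sema), plexins (Plxn), neuropilins (Nrp1 and Nrp2), ephrins (Efna and Efnb), Eph receptors (Epha and Ephb), Slit1 to Slit3, Robo1 to Robo3, Ntn1, Ntn4 and Unc5a to Unc5d. Of 19938 genes measured, 64 were members, each read from the brightest of its probe sets that carried 1 gene symbol. They comprised 20 semaphorins, 9 plexins, 2 neuropilins, 5 ephrin-A and 3 ephrin-B genes, 9 EphA and 4 EphB receptors, 3 Slit, 3 Robo, 2 netrin and 4 Unc5 genes, and Ephb2 was not analysed here.

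The cells were muscle satellite cells, the Pax7-positive stem cells that lie along muscle fibres, sorted for green fluorescence from C57BL/6 mice heterozygous for a Pax7-ZsGreen reporter. There were 3 arrays for each of 4 stages: E17.5 (fetal), postnatal day 21 (adolescent), an age of 2 to 3 months (adult) and an age of over 1 year (aged). Mice of a stage were pooled (4 fetal, 6 adolescent, 8 adult and 8 aged), and gates were set by age. Fetal cells came from forelimbs and hindlimbs and all later cells from hindlimbs, so that a difference between limbs and a difference between fetal and later stages cannot be told apart. Of 10 satellite cell markers, all read above the background level defined below on at least 1 array, and Pax7 lay between 10.36 and 11.71 on the log2 scale over the 12 arrays. By the test used below, all 10 rose in adolescent against fetal cells and 9 rose in aged against fetal cells. Between adolescent and adult cells 3 rose and 1 fell. Their mean was 9.36 in fetal, 10.6 in adolescent, 10.8 in adult and 10.8 in aged cells. The part of this rise in the results below was not tested.

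As background, guidance cues act over short or long distances to repel or attract the leading edge of a cell. Secreted class 3 semaphorins mostly bind neuropilins, which signal through plexins, whereas semaphorins held in the membrane mostly bind plexins directly. Ephrins and Eph receptors both sit in membranes, so they signal at cell contacts and in both directions. Slits bind Robo receptors, and netrins bind Dcc, neogenin and Unc5 receptors. In limbs these families are known for steering motor axons and blood vessels to the muscle, and they also act on migrating and dividing cells that are not neurons.

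On the log2 scale the median signal of an array was 6.13 to 6.29, and precision is limited by the number of arrays. Probe sets differ in how strongly they bind, so levels were compared between stages of a gene and not between genes. As a measure of background, 1194 genes for olfactory and vomeronasal receptors, proteins of the nose, were read on the same arrays, and their 95th percentile is called the receptor level. Adult replicates 2 and 3 had receptor levels of 6.15 and 6.14, aged replicate 1 had 5.87, and the remaining 9 arrays had 5.34 to 5.52. The first 3 of these are called below the 3 arrays of raised receptor level, and leaving them out was an alternative chosen after seeing the data. Of the 64 members, 58 read above the receptor level on all 3 arrays of at least 1 stage, 40 on all 12 arrays and 5 (Epha5, Epha6, Efna3, Robo3 and Sema4f) on none. Of all 19938 genes, 13836, 10827 and 5063 did so. The shares over all genes given below include those 5063, so they are taken over a set with more genes at background than the members. Adult replicate 1 stood apart in another way: Mki67, a gene of cycling cells, read 9.28 there, 6.58 and 6.44 on the other adult arrays and 10.5 to 11.0 on the fetal and adolescent arrays. More genes passed limma's test without it, so counts are given with and without that array. When it is left out, the adult stage consists of adult replicates 2 and 3, both of raised receptor level.

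The promoters of Epha3 and Sema3c, both lower in aged than in fetal cells, and of Plxnd1 and Epha4, both higher, are shown because these 4 genes carry the opposite trends described below. They were chosen by measured signal, and the aged signal of Epha3 is at or under the receptor level, so its rank among the falls is not established. Each is the 250 bases before the RefSeq gene start (GRCm38.p6), 5′ to 3′ along the gene's strand, with GC boxes (GGGCGG or its complement CCGCCC) in capitals. Epha3, chr16:63864176-63864425, minus strand, lower after birth:
Epha3: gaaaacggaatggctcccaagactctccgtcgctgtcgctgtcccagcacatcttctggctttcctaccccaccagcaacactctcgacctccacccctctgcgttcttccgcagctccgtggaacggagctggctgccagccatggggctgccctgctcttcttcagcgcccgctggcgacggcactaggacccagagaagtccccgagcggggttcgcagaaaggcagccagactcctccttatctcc
Sema3c, chr5:17574566-17574815, plus strand, lower after birth:
Sema3c: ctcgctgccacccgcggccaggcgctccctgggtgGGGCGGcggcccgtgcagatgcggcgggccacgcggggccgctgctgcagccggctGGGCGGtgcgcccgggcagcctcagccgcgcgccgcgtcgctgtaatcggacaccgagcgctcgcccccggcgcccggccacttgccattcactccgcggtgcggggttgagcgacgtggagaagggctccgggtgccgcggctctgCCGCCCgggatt
Plxnd1, chr6:115995006-115995255, minus strand, higher after birth:
Plxnd1: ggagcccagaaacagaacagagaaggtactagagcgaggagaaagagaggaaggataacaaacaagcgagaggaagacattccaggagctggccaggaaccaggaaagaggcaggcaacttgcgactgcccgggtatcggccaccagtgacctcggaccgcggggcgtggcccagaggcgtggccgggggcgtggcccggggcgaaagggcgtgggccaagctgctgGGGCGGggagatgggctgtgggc
Epha4, chr1:77515089-77515338, minus strand, higher after birth:
Epha4: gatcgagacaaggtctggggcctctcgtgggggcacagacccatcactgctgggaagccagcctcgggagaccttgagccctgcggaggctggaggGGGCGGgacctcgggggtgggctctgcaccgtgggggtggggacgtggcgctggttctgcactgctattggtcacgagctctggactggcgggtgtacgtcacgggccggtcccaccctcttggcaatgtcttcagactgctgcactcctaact

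A promoter was listed for 55 members. Its median content of G and C was 64.8% for these members, 56.4% for other genes on the array and 52.0% for all listed genes. The part of base content in the shares that follow was not tested. At least 1 GC box, on either strand, was found in 42 of the 55 (76.4%), in 45.9% of 15559 other genes on the array and in 32.9% of 27025 listed genes in all. The E-box CANNTG, which myogenic factors of the MyoD group bind and which includes CAGCTG, was found in 24 of the 55 (43.6%), in 61.8% of the other genes on the array and in 66.0% of all listed genes. CAGCTG itself was found in 7 (12.7%), in 12.2% and in 12.8%, and TATAAA in 2 (3.64%), in 11.2% and in 13.0%. Among members that the F-test called with stage means at least 1 apart, and which had a listed promoter, GC boxes were found in 9 of 12 that were lower in aged than in fetal cells and in 8 of 10 that were higher.

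Over all stages, 42 of the 64 members (65.6%) differed by limma's F-test at an adjusted p under 0.05, where 41.6% of all genes did. Without adult replicate 1 the test called 55 members (85.9%) and 71.2% of all genes. In each stage replicates 2 and 3 lie close together, and when their mean was entered as a single array the test called 27 members. Over all genes that fit called 3430, against 8293 with every array entered. Stage means at least 1 apart on the log2 scale, a 2-fold difference, were found among the called for 25 members (39.1%), and for 14.1% of all genes. Fetal cells had the highest mean of the 4 stages for 12 of the 25, adolescent cells for 4, adult cells for 0 and aged cells for 9. By the same rule 7.17% of all genes were highest in fetal, 1.21% in adolescent, 0.562% in adult and 5.11% in aged cells.

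**Figure D1:**
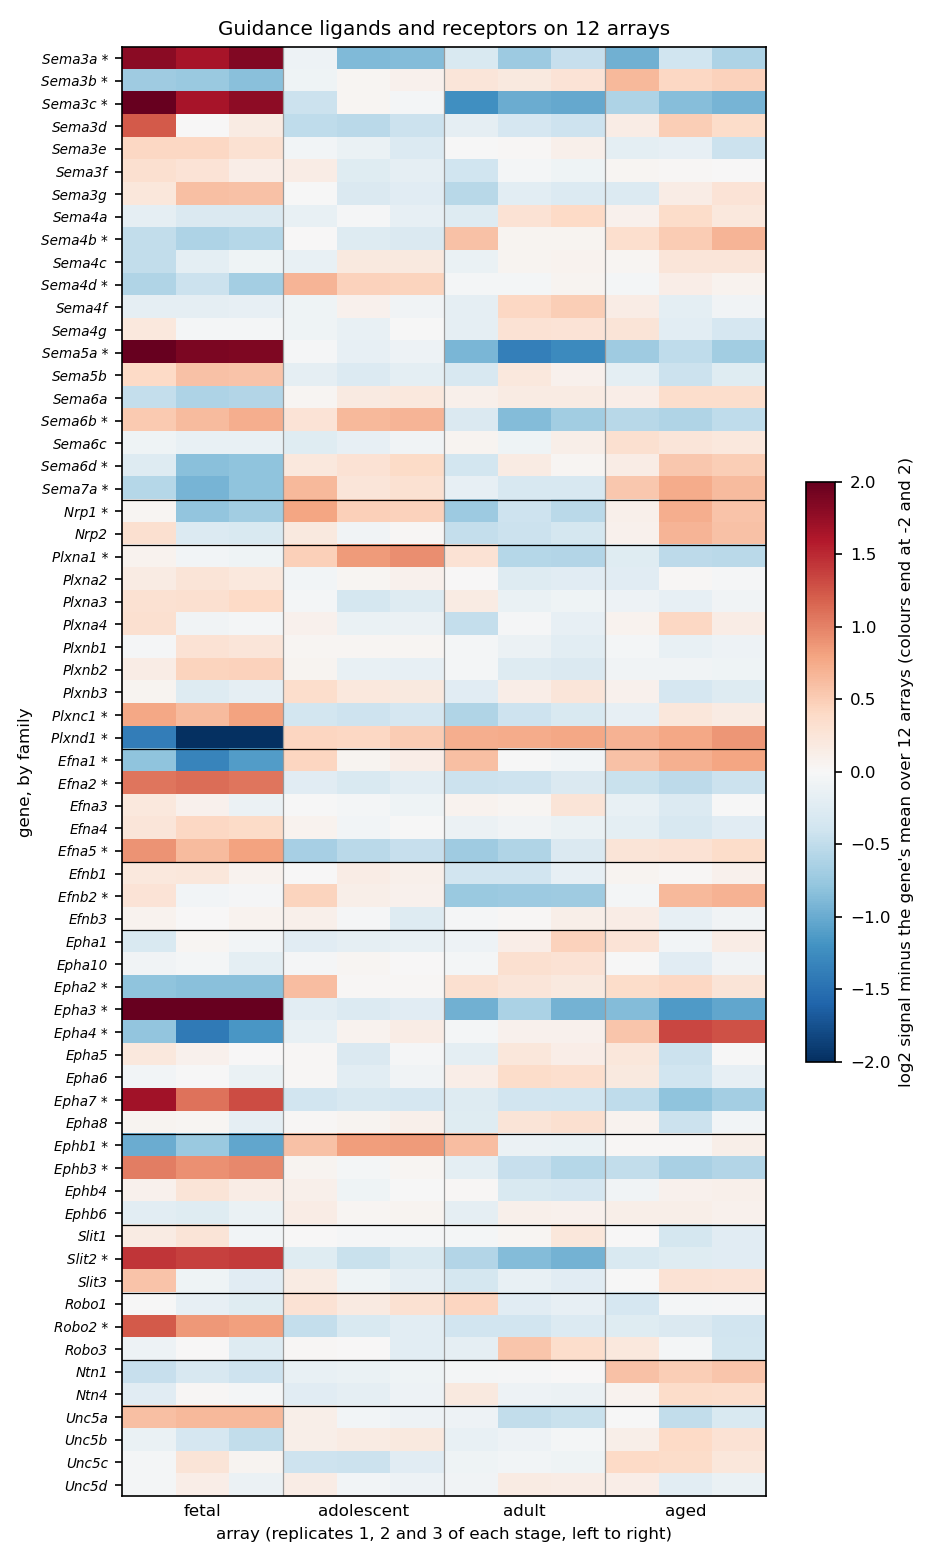
Log2 signal of the 64 guidance genes (down the page, by family) on the 12 arrays (across, replicates 1 to 3 within each stage), as the difference from the gene's own mean over 12 arrays. A star marks the 25 genes called by the F-test with stage means at least 1 apart, and the strongest colours lie in the fetal columns, red for genes such as Epha3 and Sema5a and blue for Plxnd1.

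In adolescent against fetal cells 34 members (53.1%) passed limma's test, where 18.8% of all genes did. Of these, 14 were higher (10.1% of all genes) and 20 lower (8.68% of all genes), and the median absolute log2 difference was 0.42 over the members and 0.15 over all genes. The count was 39 without adult replicate 1 (25.3% of all genes) and 19 with replicates 2 and 3 averaged. Over all genes the averaged fit called 1472, against 3739 with every array entered. In adult against adolescent cells 13 members (20.3%) passed, close to the 19.8% of all genes, with 0 higher (4.56% of all genes) and 13 lower (15.2%), and by limma's unadjusted p under 0.05 the higher count was 5. Without adult replicate 1, 25 members passed (8 higher and 17 lower, where 54.0% of all genes were called, 25.4% higher and 28.6% lower). With replicates 2 and 3 averaged 1 member passed. Over all genes the averaged fit called 323 here, against 3941 with every array entered.

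In aged against adult cells 10 members (15.6%) passed, where 3.50% of all genes did, with 10 higher (3.28% of all genes) and 0 lower (0.216%), and by limma's unadjusted p under 0.05 the lower count was 6. When adult replicate 1 was left out 26 members passed (18 higher and 8 lower, where 39.3% of all genes were called, 20.3% higher and 19.1% lower). Both adult arrays in that fit are of raised receptor level, so a difference in background and one in stage cannot be told apart there. The number of members was 4 without adult replicate 2, adult replicate 3, aged replicate 2 or aged replicate 3. Over all genes these fits called 269, 289, 214 and 216, against 697 with every array entered. The number of members was 0 by limma with replicates 2 and 3 averaged (12 at an unadjusted p under 0.05). Over all genes that fit called 2. In aged against fetal cells 39 members (60.9%) passed, where 35.8% of all genes did, with 20 higher (16.4% of all genes) and 19 lower (19.4%), and without adult replicate 1 the number was 43, where 42.8% of all genes were called. These comparisons share arrays, so each is given with its own values, and log2 differences below carry the standard error (SE) of limma's fit, with 3 arrays per stage. Because the RNA is bulk RNA, fewer cells of a type and less RNA per cell cannot be told apart.

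Of the 7 class 3 semaphorins, the secreted ones, 5 fell and 1 rose in adolescent against fetal cells, where 8.68% of all genes fell and 10.1% rose. In aged against fetal cells 3 fell and 1 rose, where 19.4% and 16.4% of all genes did, and 6 of the 7 passed the F-test. Sema3a, a repellent of motor axons, read 9.25, 9.09 and 9.30 on the fetal arrays, 7.35, 6.56 and 6.58 on the adolescent, 7.14, 6.72 and 6.99 on the adult and 6.49, 7.05 and 6.83 on the aged arrays. The fetal arrays lay above all others and the 3 later stages overlapped. Sema3a was 5.22-fold lower in adolescent than in fetal cells (log2 difference -2.38 ± 0.21, adjusted p = 3.33e-06), and neither adult against adolescent (0.12 ± 0.21) nor aged against adult cells (-0.17 ± 0.21) passed.

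Sema3c, known from the heart's outflow tract, gave 9.04, 8.03 and 8.18 in fetal, 5.95, 6.42 and 6.35 in adolescent, 5.16, 5.39 and 5.36 in adult and 5.77, 5.54 and 5.45 in aged cells. Fetal replicate 1 was the highest, and no stage overlapped with the next. It fell by 2.18 ± 0.22 in adolescent against fetal cells (adjusted p = 1.37e-05) and by 0.94 ± 0.22 in adult against adolescent cells (adjusted p = 0.0118). All adult arrays were at or under the receptor level, so that second fall is at least 1.28-fold. Without adolescent replicate 2 it did not pass (-0.85, adjusted p = 0.0515), nor without the 3 arrays of raised receptor level (-1.08, adjusted p = 0.0752).

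Sema3b went the other way. Its signals were 7.64, 7.62 and 7.53 in fetal, 8.27, 8.39 and 8.45 in adolescent, 8.60, 8.56 and 8.64 in adult and 9.01, 8.78 and 8.82 in aged cells, each stage above the one before with no overlap. The rise in adolescent against fetal cells was 0.77 ± 0.10 (adjusted p = 7.42e-05) and that in aged against fetal cells 1.27 ± 0.10 (adjusted p = 3.89e-07). The 2 later steps taken singly, 0.23 ± 0.10 and 0.27 ± 0.10, did not pass, and without adult replicate 1 the last one did (adjusted p = 0.0479).

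Sema3e, which binds plexin-D1 without a neuropilin, read 5.82, 5.83 and 5.72 in fetal cells and was at or under the receptor level on all adolescent and all aged arrays. It was at least 1.25-fold lower in adolescent than in fetal cells (log2 difference -0.53 ± 0.10, adjusted p = 0.00219). Sema3g, a semaphorin of vessels, fell by 0.65 ± 0.16 in adolescent against fetal cells (adjusted p = 0.0121), which did not pass without fetal replicate 2 or 3 or adolescent replicate 2 (-0.58, -0.59 and -0.59, adjusted p = 0.0569, 0.0580 and 0.0582). Sema3d fell by 0.96 ± 0.24 (adjusted p = 0.0135), at least 1.58-fold with all adolescent arrays at or under the receptor level, with 5.16, 5.12 and 5.23 in adolescent cells against 6.89, 5.66 and 5.83 in fetal cells. In aged cells Sema3d averaged 6.00, against 6.13 in fetal cells, a difference that did not pass. Its fetal replicate 1 was over 1 log2 unit above the other fetal arrays, and Sema3f did not pass among the stages (adjusted p = 0.0710).

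Among the membrane-bound semaphorins, Sema5a, whose outer part carries thrombospondin repeats, changed in every comparison. It read 9.44, 9.32 and 9.31 in fetal, 7.42, 7.28 and 7.35 in adolescent, 6.52, 6.08 and 6.17 in adult and 6.73, 6.94 and 6.74 in aged cells. No stage overlapped with another. It fell by 2.01 ± 0.12 in adolescent against fetal cells (4.02-fold, adjusted p = 1.44e-07) and by 1.09 ± 0.12 in adult against adolescent cells (adjusted p = 1.88e-04). It rose by 0.55 ± 0.12 in aged against adult cells (adjusted p = 0.0277), a call that was lost without adult replicate 2 (0.46, adjusted p = 0.128), adult replicate 3 (0.51, adjusted p = 0.114), aged replicate 2 (0.48, adjusted p = 0.150) or aged replicate 3 (0.58, adjusted p = 0.0889). Without the 3 arrays of raised receptor level it was 0.32 (adjusted p = 0.151), and 2 of the 3 adult arrays were above that level. Its relative Sema5b fell by 0.73 ± 0.13 in adolescent against fetal cells (adjusted p = 0.00158) and did not pass in either later step.

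Of the 6 class 4 semaphorins, which cross the membrane and include the plexin-B1 ligand Sema4d, 2 passed the F-test, Sema4d and Sema4b, where 41.6% of all genes did. Sema4a (0.47, adjusted p = 0.0251) and Sema4c (0.43, adjusted p = 0.0236) passed in aged against fetal cells alone, and Sema4f and Sema4g in no comparison. Sema4d read 6.17, 6.34 and 6.09 in fetal, 7.45, 7.23 and 7.22 in adolescent, 6.74, 6.74 and 6.83 in adult and 6.74, 6.91 and 6.84 in aged cells. The adolescent arrays were above all others and the fetal arrays below all others. It rose by 1.10 ± 0.10 in adolescent against fetal cells (adjusted p = 6.77e-06) and fell by 0.53 ± 0.10 in adult against adolescent cells (adjusted p = 0.00386). A second, dimmer Sema4d probe set gave 0.22 and 0.15 for the same differences, and with the mean of both probe sets the second fall did not pass (-0.19, adjusted p = 0.211). Sema4b rose by 1.07 ± 0.15 in aged against fetal cells (adjusted p = 8.81e-05), with 7.84, 8.00 and 8.18 in aged cells against 7.00, 6.87 and 6.92 in fetal cells, and its steps between neighbouring stages, 0.39, 0.41 and 0.28, did not pass.

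Sema6b was high in both growing stages. It read 7.96, 8.07 and 8.15 in fetal, 7.71, 8.07 and 8.11 in adolescent, 7.14, 6.56 and 6.73 in adult and 6.88, 6.83 and 6.91 in aged cells. Fetal and adolescent arrays overlapped, as did adult and aged arrays, and the early pair lay above the late pair. Sema6b fell by 1.15 ± 0.15 in adult against adolescent cells (2.22-fold, adjusted p = 3.62e-04), and its other 2 steps, -0.09 ± 0.15 and 0.06 ± 0.15, did not pass. Both of its probe sets carry the same values and count once.

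The plexin-A ligands Sema6a and Sema6d rose in adolescent against fetal cells, by 0.70 ± 0.10 (adjusted p = 1.77e-04) and 0.93 ± 0.18 (adjusted p = 0.00213). Sema6a stayed between 11.02 and 11.34 on all adolescent, adult and aged arrays, against 10.36 to 10.51 on the fetal arrays. Sema6c changed little, and rose by 0.39 ± 0.09 in aged against fetal cells (adjusted p = 0.00426).

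Sema7a, which is tied to the membrane by a lipid anchor and binds plexin-C1, moved in every step. It read 6.26, 5.91 and 6.03 in fetal, 7.48, 7.07 and 7.14 in adolescent, 6.67, 6.51 and 6.51 in adult and 7.38, 7.57 and 7.47 in aged cells. Adolescent and aged arrays overlapped at the top and the fetal arrays were lowest. It rose by 1.16 ± 0.13 in adolescent against fetal cells (adjusted p = 2.69e-05), fell by 0.66 ± 0.13 in adult against adolescent cells (adjusted p = 0.00393) and rose by 0.91 ± 0.13 in aged against adult cells (adjusted p = 0.00252). Its fall in adult cells did not pass without the 3 arrays of raised receptor level (-0.55, adjusted p = 0.0836). Its receptor Plxnc1 read 7.15, 7.01 and 7.19 in fetal, 6.00, 5.97 and 6.04 in adolescent, 5.77, 5.95 and 6.07 in adult and 6.22, 6.59 and 6.54 in aged cells. Plxnc1 fell by 1.11 ± 0.12 in adolescent against fetal cells (adjusted p = 1.78e-05), where Sema7a rose, and rose by 0.52 ± 0.12 in aged against adult cells (adjusted p = 0.0310). Without adult replicate 2, adult replicate 3, aged replicate 2 or aged replicate 3 that Plxnc1 rise had an adjusted p of 0.0950, 0.0512, 0.165 and 0.149 and values of 0.53, 0.59, 0.45 and 0.48, and only 1 of the 3 adult arrays read above the receptor level.

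**Figure D2:**
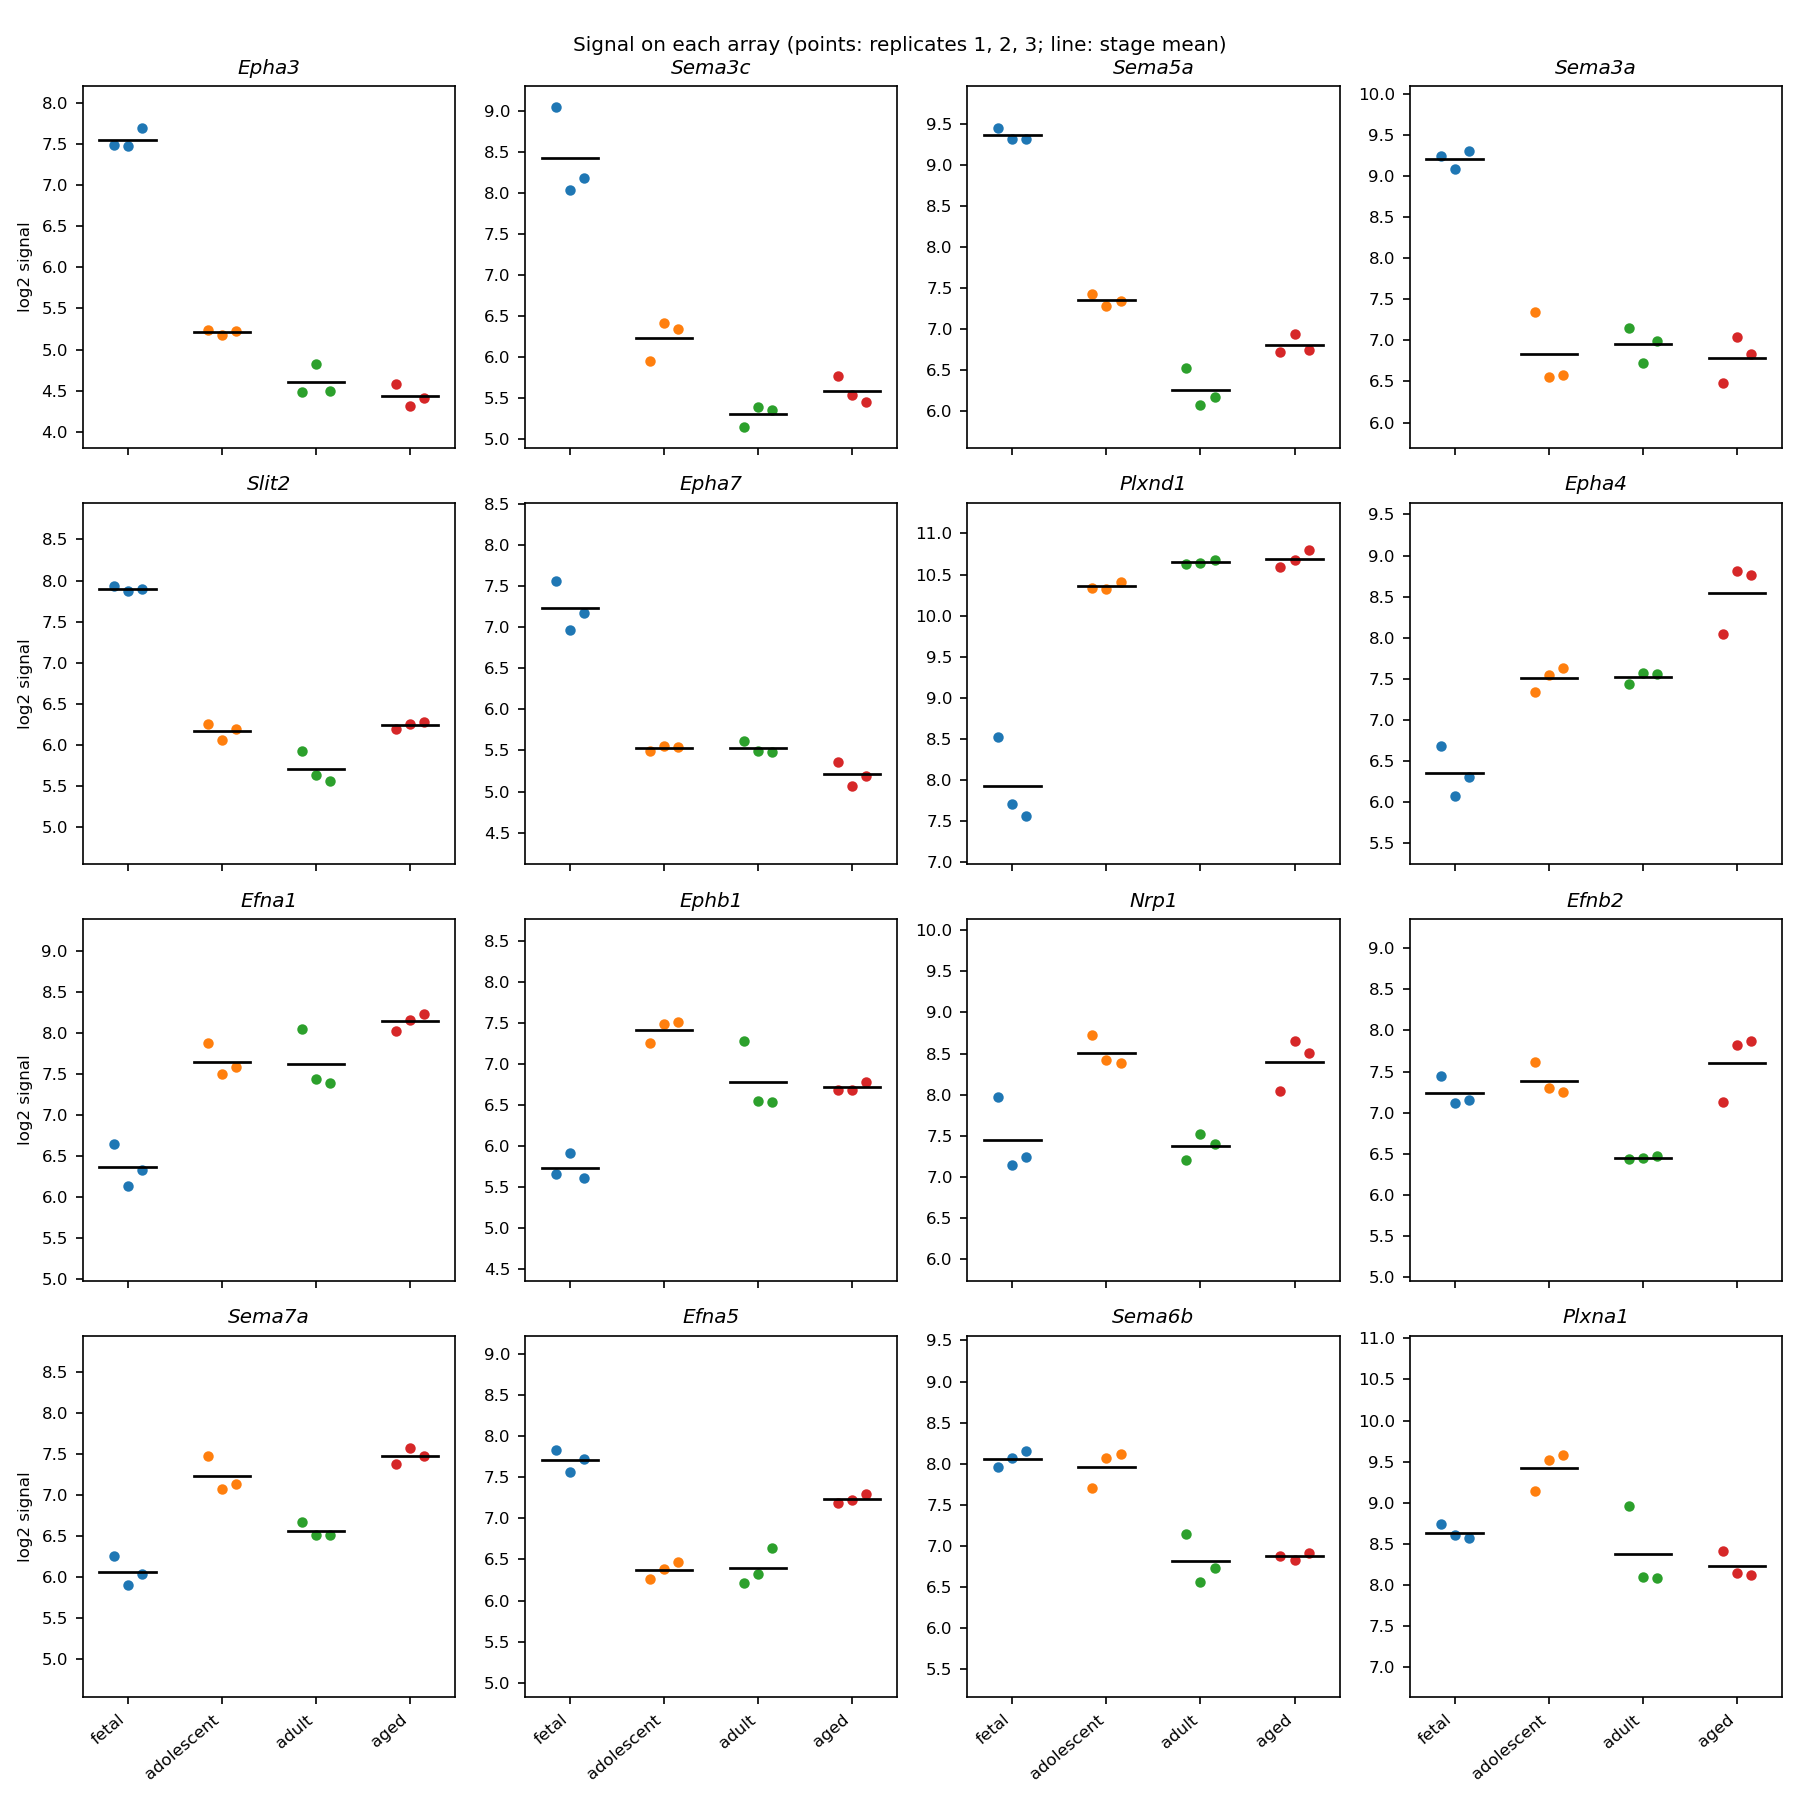
Log2 signal (vertical axis, every panel spanning the same range of units) of 16 guidance genes on each array, with stages from fetal to aged across, points for replicates 1 to 3 and a line for the stage mean. The first 6 genes are highest on the fetal arrays, and Plxnd1 and Epha4 are lowest there. Nrp1, Efnb2 and Sema7a are lower in adult cells than in the stages on either side, as are Sema3c, Sema5a and Slit2.

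Plxnd1, the plexin-D1 receptor known best from blood vessels, had the largest rise of the 64 members in adolescent against fetal cells. It read 8.52, 7.71 and 7.56 in fetal, 10.34, 10.33 and 10.41 in adolescent, 10.63, 10.64 and 10.68 in adult and 10.59, 10.67 and 10.79 in aged cells. The fetal arrays lay far below the rest. Plxnd1 was 5.38-fold higher in adolescent than in fetal cells (2.43 ± 0.19, adjusted p = 1.35e-06), and the next steps, 0.29 ± 0.19 and 0.04 ± 0.19, did not pass. Its ligand Sema3e fell over the same interval, as given above.

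Plxna1, a partner of neuropilin-1, was highest in adolescent cells, with 8.74, 8.61 and 8.57 in fetal, 9.14, 9.52 and 9.59 in adolescent, 8.96, 8.09 and 8.08 in adult and 8.42, 8.14 and 8.12 in aged cells. Adult replicate 1 lay nearer to the adolescent arrays than the other adult arrays did. Plxna1 fell by 1.04 ± 0.21 in adult against adolescent cells (adjusted p = 0.00471) and by 1.33 without adult replicate 1 (adjusted p = 1.84e-05), but without the 3 arrays of raised receptor level the fall was not called (-0.46, adjusted p = 0.120). Its rise of 0.78 ± 0.21 in adolescent against fetal cells (adjusted p = 0.0185) did not pass without fetal replicate 2 (0.76, adjusted p = 0.0608), fetal replicate 3 (0.75, adjusted p = 0.0690), adolescent replicate 2 (0.73, adjusted p = 0.0732) or adolescent replicate 3 (0.70, adjusted p = 0.0824).

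The other plexins moved less. Plxna3 fell by 0.56 ± 0.11 (adjusted p = 0.00283) and Plxnb2 by 0.44 ± 0.11 (adjusted p = 0.0155) in adolescent against fetal cells. The Plxnb2 fall did not pass without replicate 2 or 3 of either stage (-0.39, -0.38, -0.41 and -0.40, adjusted p = 0.0732, 0.0766, 0.0703 and 0.0741). Plxna2 passed in aged against fetal cells (-0.29 ± 0.10, adjusted p = 0.0439), but not without any 1 of fetal replicates 1, 2 and 3 or aged replicates 1 and 3 (-0.32 to -0.22, adjusted p = 0.0672 to 0.135), nor with the replicate block (adjusted p = 0.0722). The receptors Plxna4, Plxnb1 and Plxnb3 did not pass among the stages.

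Neuropilin-1, which binds both class 3 semaphorins and vascular endothelial growth factor, rose, fell and rose again. Nrp1 read 7.97, 7.15 and 7.24 in fetal, 8.72, 8.42 and 8.39 in adolescent, 7.21, 7.52 and 7.40 in adult and 8.04, 8.66 and 8.50 in aged cells. Fetal and adult arrays overlapped at the bottom and adolescent and aged arrays at the top. The differences were 1.06 ± 0.21 in adolescent against fetal (adjusted p = 0.00305), -1.13 ± 0.21 in adult against adolescent (adjusted p = 0.00310) and 1.02 ± 0.21 in aged against adult cells (adjusted p = 0.0199). The last was not called without adult replicate 2 (1.09, adjusted p = 0.0521), adult replicate 3 (1.04, adjusted p = 0.0657), aged replicate 2 (0.90, adjusted p = 0.115) or aged replicate 3 (0.97, adjusted p = 0.0967). Nrp2 rose by 0.87 ± 0.18 in aged against adult cells (adjusted p = 0.0197), with 6.88, 7.46 and 7.38 in aged cells against 6.31, 6.35 and 6.43 in adult cells, and did not pass in the earlier steps. Without adult replicate 2 or 3 or aged replicate 2 or 3 that rise was 0.87, 0.91, 0.76 and 0.80 (adjusted p = 0.0741, 0.0575, 0.115 and 0.103).

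Among the ephrin-A ligands, which a lipid anchor holds in the membrane, Efna1 rose while Efna2, Efna4 and Efna5 fell in adolescent against fetal cells. Efna1 read 6.64, 6.13 and 6.33 in fetal, 7.87, 7.50 and 7.58 in adolescent, 8.04, 7.43 and 7.38 in adult and 8.03, 8.16 and 8.23 in aged cells. The fetal arrays were lowest, and adult replicate 1 lay within the aged range while the other adult arrays lay below it. Efna1 rose by 1.28 ± 0.18 in adolescent against fetal cells (adjusted p = 2.24e-04). Its rise in aged against adult cells, 0.52 ± 0.18, did not pass, but passed without adult replicate 1 (0.73, adjusted p = 0.00502). Efna4 fell by 0.35 ± 0.09 in adolescent against fetal cells (adjusted p = 0.0142), but did not pass without replicate 2 or 3 of either stage (-0.32, -0.33, -0.32 and -0.34, adjusted p = 0.0586 to 0.0725).

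Efna2 had one of the tightest patterns, at 8.07, 8.12 and 8.07 in fetal, 6.77, 6.71 and 6.79 in adolescent, 6.58, 6.59 and 6.72 in adult and 6.57, 6.47 and 6.58 in aged cells. It was 2.52-fold lower in adolescent than in fetal cells (-1.33 ± 0.09, adjusted p = 2.48e-07) and did not pass in the later steps. Efna5, which takes part in the sorting of limb motor axons, fell and then returned part of the way. It read 7.83, 7.57 and 7.73 in fetal, 6.26, 6.39 and 6.47 in adolescent, 6.22, 6.32 and 6.64 in adult and 7.18, 7.22 and 7.29 in aged cells. Adolescent and adult arrays overlapped and the aged arrays lay between them and the fetal arrays. Efna5 fell by 1.33 ± 0.12 in adolescent against fetal cells (adjusted p = 5.22e-06), rose by 0.84 ± 0.12 in aged against adult cells (adjusted p = 0.00270) and was still 0.47 ± 0.12 below the fetal level in aged cells (adjusted p = 0.00768).

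Ephrin-B ligands span the membrane and signal into their own cell as well. Efnb2, also a gene of arteries, read 7.44, 7.12 and 7.15 in fetal, 7.62, 7.30 and 7.25 in adolescent, 6.43, 6.45 and 6.47 in adult and 7.13, 7.82 and 7.87 in aged cells. The adult arrays were below all others, and the other 3 stages overlapped. Efnb2 fell by 0.94 ± 0.18 in adult against adolescent cells (adjusted p = 0.00346) and rose by 1.16 ± 0.18 in aged against adult cells (2.23-fold, adjusted p = 0.00371). In aged against fetal cells the difference of 0.37 ± 0.18 did not pass, and without aged replicate 1 it did (0.61, adjusted p = 0.00344). Efnb1 fell by 0.40 ± 0.10 in adult against adolescent cells (adjusted p = 0.0132), but not without adolescent replicate 2 or 3 or adult replicate 2 (-0.36, -0.39 and -0.36, adjusted p = 0.0600, 0.0535 and 0.0660), and Efnb3 did not pass among the stages.

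Eph receptors of the A group diverged. Epha3 read 7.49, 7.47 and 7.70 in fetal, 5.24, 5.18 and 5.22 in adolescent, 4.49, 4.82 and 4.50 in adult and 4.58, 4.32 and 4.41 in aged cells. Every array after birth was at or under the receptor level. Epha3 was therefore at least 4.24-fold lower in adolescent (-2.34 ± 0.12, adjusted p = 2.37e-08) and at least 4.02-fold lower in aged than in fetal cells (-3.12 ± 0.12, adjusted p = 8.47e-10), and its further step in adult against adolescent cells (-0.61 ± 0.12) lies within the background and is given no fold. Epha7 read 7.56, 6.96 and 7.17 in fetal, 5.49, 5.56 and 5.54 in adolescent, 5.61, 5.50 and 5.48 in adult and 5.36, 5.07 and 5.19 in aged cells. The fetal arrays lay far above the rest, adolescent and adult arrays overlapped, and the aged arrays were lowest. Epha7 fell by 1.70 ± 0.14 in adolescent against fetal cells (adjusted p = 1.69e-06), and with all aged arrays at or under the receptor level it was at least 3.22-fold lower in aged than in fetal cells (adjusted p = 1.50e-07).

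Epha4, a receptor for ephrins of both groups that guides motor axons into the dorsal limb, rose with age. It read 6.69, 6.07 and 6.31 in fetal, 7.34, 7.55 and 7.63 in adolescent, 7.44, 7.57 and 7.57 in adult and 8.04, 8.82 and 8.76 in aged cells. Adolescent and adult arrays overlapped, with all fetal arrays below and all aged arrays above them. It was 4.53-fold higher in aged than in fetal cells (2.18 ± 0.20, adjusted p = 1.97e-06). The rise was 1.15 ± 0.20 in adolescent against fetal (adjusted p = 0.00107), 0.02 ± 0.20 in adult against adolescent, which did not pass, and 1.01 ± 0.20 in aged against adult cells (adjusted p = 0.0151). Leaving out adult replicate 2, adult replicate 3, aged replicate 2 or aged replicate 3 left that last rise uncalled at 1.04, 1.03, 0.88 and 0.90 (adjusted p = 0.0538, 0.0531, 0.0912 and 0.0883).

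Epha2, a receptor that binds ephrin-A1, was 2.06-fold higher in adolescent than in fetal cells, with 7.18, 6.59 and 6.58 in adolescent cells against 5.76, 5.73 and 5.73 in fetal cells (1.04 ± 0.14, adjusted p = 1.55e-04). It then stayed between 6.76 and 6.98 on the adult and aged arrays. Epha1, Epha8 and Epha10 did not pass among the stages, nor did Epha5 and Epha6, which read at or under the receptor level throughout.

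Of the EphB receptors, Ephb1 and Ephb3 moved in opposite directions in adolescent against fetal cells. Ephb1 read 5.66, 5.91 and 5.61 in fetal, 7.25, 7.49 and 7.51 in adolescent, 7.28, 6.55 and 6.53 in adult and 6.69, 6.68 and 6.77 in aged cells. Adult replicate 1 was within the adolescent range and the other adult arrays were below the aged ones. Ephb1 rose by 1.69 ± 0.17 in adolescent against fetal cells (3.22-fold, adjusted p = 1.58e-05), where its second, dimmer probe set gave 0.795. Its fall of 0.63 ± 0.17 in adult against adolescent cells (adjusted p = 0.0245) was 0.88 without adult replicate 1 (adjusted p = 9.01e-05). The same fall was not called with the mean of its 2 probe sets (-0.32, adjusted p = 0.0626), nor without adolescent replicate 2 (-0.59, adjusted p = 0.0803), adolescent replicate 3 (-0.59, adjusted p = 0.0876), adult replicate 2 (-0.51, adjusted p = 0.117) or adult replicate 3 (-0.50, adjusted p = 0.117). Without the 3 arrays of raised receptor level it was -0.14 (adjusted p = 0.639).

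Ephb3 read 8.22, 8.12 and 8.16 in fetal, 7.26, 7.16 and 7.24 in adolescent, 7.00, 6.74 and 6.63 in adult and 6.70, 6.55 and 6.62 in aged cells, lower at each step up to the adult stage with no overlap. It fell by 0.94 ± 0.11 in adolescent against fetal (adjusted p = 3.07e-05) and by 0.43 ± 0.11 in adult against adolescent cells (adjusted p = 0.0137). The second fall was not called without adolescent replicate 3 (-0.42, adjusted p = 0.0545), adult replicate 2 (-0.40, adjusted p = 0.0619) or adult replicate 3 (-0.35, adjusted p = 0.0722), nor without the 3 arrays of raised receptor level (-0.22, adjusted p = 0.212). Ephb4, the receptor of ephrin-B2 in veins, and Ephb6, whose kinase domain is inactive, did not pass among the stages, with stage means 0.37 and 0.30 apart, and Ephb6 passed in aged against fetal cells alone (0.30, adjusted p = 0.0249).

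**Figure D3:**
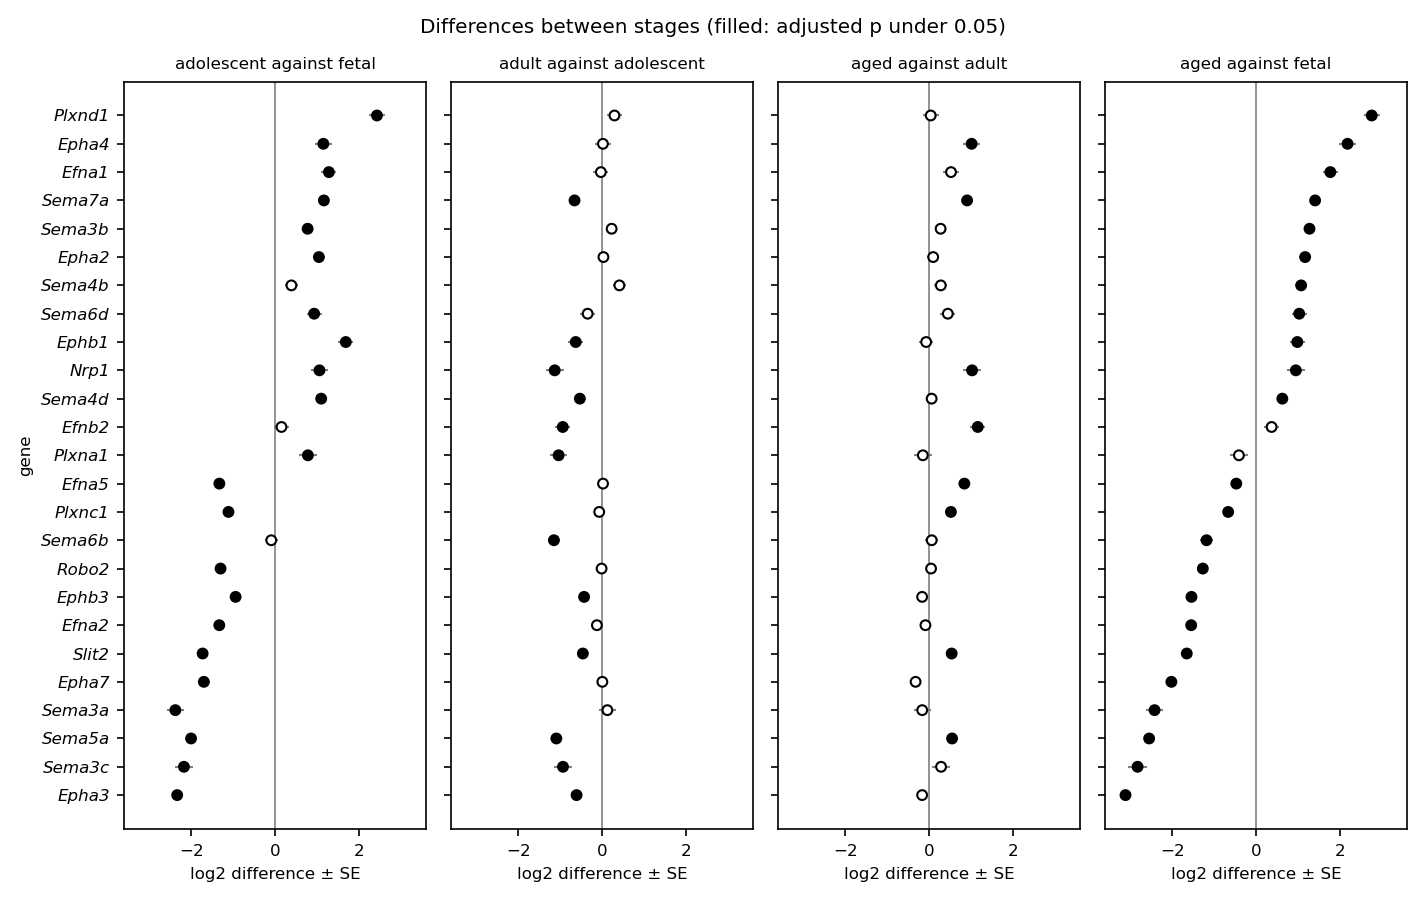
Log2 differences (horizontal axis, bars ± SE, 3 arrays per stage) of the 25 members called by the F-test with stage means at least 1 apart, in the 4 comparisons, which run in panels from adolescent against fetal to aged against fetal cells. Filled points passed limma's test, and the passed points lie on both sides of 0 in the first and last panels, only left of 0 in adult against adolescent and only right of it in aged against adult cells.

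In the Slit and Robo families the ligand Slit2 and the receptor Robo2 were highest in fetal cells. Slit2 read 7.94, 7.87 and 7.90 in fetal, 6.26, 6.06 and 6.20 in adolescent, 5.93, 5.64 and 5.56 in adult and 6.20, 6.26 and 6.28 in aged cells. The fetal arrays lay far above all others and the adult arrays below all others, and adult replicates 2 and 3 were under the receptor level, so that differences against adult cells are partly set against background. It was 3.32-fold lower in adolescent than in fetal cells (-1.73 ± 0.11, adjusted p = 1.84e-07). It fell by 0.46 ± 0.11 in adult against adolescent cells (adjusted p = 0.0106) and rose by 0.54 ± 0.11 in aged against adult cells (adjusted p = 0.0166). Without adult replicate 2 or 3 the fall was -0.43 and -0.39 (adjusted p = 0.0520 and 0.0567), and the rise had an adjusted p of 0.0793 and 0.0825 without these, and of 0.0819 and 0.0878 without aged replicates 2 and 3 (0.50, 0.46, 0.53 and 0.52). Without the 3 arrays of raised receptor level neither passed (-0.24, adjusted p = 0.199, and 0.34, adjusted p = 0.0924).

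Robo2 read 6.73, 6.38 and 6.32 in fetal, 5.03, 5.19 and 5.29 in adolescent, 5.12, 5.12 and 5.23 in adult and 5.27, 5.22 and 5.12 in aged cells. All arrays after birth were at or under the receptor level, and Robo2 was at least 2.01-fold lower in adolescent than in fetal cells (-1.30 ± 0.12, adjusted p = 5.50e-06). Robo1 did not pass among the stages and read between 9.00 and 9.75 on all 12 arrays, with adult replicate 1 the highest. Slit1, Slit3 and Robo3 did not pass either.

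Netrin-1 rose to its highest level in aged cells. Ntn1 read 7.59, 7.72 and 7.63 in fetal, 7.90, 7.92 and 7.96 in adolescent, 8.01, 8.03 and 8.06 in adult and 8.63, 8.54 and 8.60 in aged cells. Each stage lay above the one before with no overlap and with little spread within a stage. The rise was 0.28 ± 0.08 in adolescent against fetal cells (adjusted p = 0.0342), 0.11 ± 0.08 in adult against adolescent cells, which did not pass, and 0.56 ± 0.08 in aged against adult cells (adjusted p = 0.00323). The first of these was not called without any 1 of the 3 fetal or 3 adolescent arrays (0.25 to 0.31, adjusted p = 0.0502 to 0.133), nor with the replicate block (adjusted p = 0.0626). Its relative Ntn4, a netrin of basement membranes, rose by 0.35 ± 0.12 in aged against fetal cells (adjusted p = 0.0406). That call was lost without fetal replicate 1 or 3 or aged replicate 2 or 3 (0.27, 0.37, 0.29 and 0.30, adjusted p = 0.153, 0.0763, 0.137 and 0.137), with arrays centred (0.26, adjusted p = 0.179) and with the replicate block (adjusted p = 0.0636).

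The netrin receptors of the Unc5 group moved differently from one another. Unc5a fell by 0.65 ± 0.14 in adolescent against fetal cells (adjusted p = 0.00436), with 7.49, 7.31 and 7.27 in adolescent cells against 7.98, 8.02 and 8.02 in fetal cells. Unc5b, known from vessels, rose by 0.48 ± 0.11 (adjusted p = 0.00765). Unc5c fell by 0.44 ± 0.10 (adjusted p = 0.00911), at least 1.2-fold with all adolescent arrays at or under the receptor level, and not called without fetal replicate 2 (-0.36, adjusted p = 0.0523), and Unc5d did not pass among the stages.

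A list of 70 further names, made up of co-receptors, other ligands and the cytoplasmic partners of these receptors, matched 65 measured genes. In adolescent against fetal cells 10 rose and 12 fell (33.8%, where 18.8% of all genes passed), and the median log2 difference was 0.06, against 0.02 over all genes. Fyn, a Src-family kinase used by plexins and Eph receptors, fell by 1.04 ± 0.10 (adjusted p = 1.15e-05). Mical2, an actin oxidase of the family that acts below plexins, fell by 1.16 ± 0.12 (adjusted p = 1.90e-05). Dpysl4 and Dpysl5, of the collapsin response mediator family named for the semaphorin response, fell by 0.97 ± 0.10 and 0.92 ± 0.11.

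In adult against adolescent cells 3 of the partners rose and 12 fell (23.1%, near the 19.8% of all genes). The test called 31 without adult replicate 1 (54.0% of all genes) and 10 without adolescent replicate 3 (2249 of the 19938 genes). It called 9 without adult replicate 2 or 3 (1876 and 1938 genes). Ntn5 rose by 1.23 ± 0.10 (adjusted p = 3.77e-05), with 9.08, 8.86 and 9.02 in adult cells against 7.70, 7.73 and 7.83 in adolescent cells, and Mical3 rose by 0.93 ± 0.14. Limk1, a kinase that acts on the actin-severing protein cofilin, fell by 0.80 ± 0.11 and Fyn by 0.78 ± 0.10. In aged against adult cells 3 rose and 0 fell (4.62%, near the 3.50% of all genes, and 1 lower at limma's unadjusted p under 0.05): Arhgef15 (0.91 ± 0.15), an exchange factor that binds Eph receptors, Robo4 (0.79 ± 0.17), the Robo of vessels, and Sipa1l1 (0.50 ± 0.12). That count was 28 without adult replicate 1 (39.3% of all genes) and 15 without aged replicate 1 (2214 of the 19938 genes). It was 2 without adult replicate 2 or 3 (269 and 289 genes), 1 without aged replicate 2 or 3 (214 and 216 genes), and 1 with the replicate block (518 genes). Of the 3, Arhgef15 passed without each array in turn, while Robo4 did not without aged replicate 2 or 3 (0.78 and 0.77, adjusted p = 0.101 each) and Sipa1l1 not without adult or aged replicate 2 or 3 (0.45 to 0.51, adjusted p = 0.0989 to 0.154). In aged against fetal cells 19 rose and 19 fell (58.5% of the 65, where 35.8% of all genes passed), and Dcc, the netrin receptor, and Neo1, neogenin, did not pass in any of the 4 comparisons.

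Markers of other cells moved with some of these genes. The mean over 15 endothelial markers was 7.50, 6.75 and 6.74 on the fetal arrays, 8.70, 8.15 and 8.19 on the adolescent, 7.62, 7.60 and 7.64 on the adult and 8.34, 8.82 and 8.79 on the aged arrays. Of the 15, 14 rose and 0 fell in adolescent against fetal, 0 rose and 8 fell in adult against adolescent, and 10 rose and 0 fell in aged against adult cells. All 15 read above the receptor level on some array, and Pecam1 averaged 7.08, 8.57, 7.55 and 8.95 from the fetal to the aged stage. Nrp1, Sema7a and Efnb2 were likewise lower in adult cells than in adolescent and in aged cells. By limma's test so were Sema5a and Slit2. These fell in adolescent against fetal cells (-2.01 and -1.73), where 14 of the 15 endothelial markers rose. Epha4, Nrp2 and Robo4 rose in aged against adult cells, and Plxnd1, Efna1 and Unc5b rose in adolescent against fetal cells. Other steps differed from the markers. In adult against adolescent cells Plxnd1 (0.29), Efna1 (-0.03), Epha4 (0.02), Nrp2 (-0.47), Unc5b (-0.26) and Robo4 (-0.51) did not pass. Efnb2 (0.15) and Nrp2 (0.14) did not pass in adolescent against fetal cells, nor Plxnd1 (0.04), Efna1 (0.52) and Unc5b (0.37) in aged against adult cells. Sema3g and Ephb4, named above for vessels and veins, also differed from the markers in adolescent against fetal cells. There Sema3g fell (-0.65) and Ephb4 did not pass (-0.16). The part of endothelial RNA in these results was not tested.

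Of 8 markers of pericytes and smooth muscle, 6 rose and 1 fell in adolescent against fetal, 1 rose and 3 fell in adult against adolescent and 3 rose in aged against adult cells. Fibroblast markers averaged 9.22 on fetal replicate 1, and 8.47 and 8.50 on the other fetal arrays, and myofibre markers 8.55 there, and 7.52 and 7.54. The fibroblast mean was 8.31, 8.62 and 8.64 on the adolescent arrays. Of 9 fibroblast markers 2 rose and 4 fell in adolescent against fetal cells and 3 fell in adult against adolescent cells. Col1a2 (-1.11 and -1.42) and Lum (-1.13 and -1.02) were among those that fell. Sema3c, Sema3d, Nrp1, Nrp2, Slit3 and Plxnd1 were also highest of the fetal arrays on fetal replicate 1. Without that replicate the calls of the 25 members with stage means at least 1 apart all passed, 22 of 22 in adolescent and 23 of 23 in aged against fetal cells. Of 10 neuronal markers, 7 read at or under the receptor level on every array. Of the other 3, Stmn2 rose (0.95, adjusted p = 0.0238) and Uchl1 fell (-0.60, adjusted p = 0.00136) in adolescent against fetal cells, and Gap43 fell in aged against fetal cells (-1.01, adjusted p = 0.00199). The mean of 8 Schwann and glial markers stayed between 6.70 and 7.04 while members moved in opposite directions. In adolescent against fetal cells Mbp rose by 1.22 and Erbb3 fell by 1.28, and Cdh19 rose by 1.12 within signals at or under the receptor level, and Mbp and Cdh19 also rose in aged against adult cells (0.37 and 0.55). Of 6 mast cell markers 5 fell in adolescent against fetal cells, with list means of 4.94, 4.95 and 5.00 in adolescent cells against 6.15, 6.51 and 6.47 in fetal cells. Of 8 myofibre markers 3 rose and 1 fell in adolescent against fetal and 4 fell in adult against adolescent cells, and of 8 macrophage markers 1 rose and 1 fell in adolescent against fetal cells and none passed in the next 2 steps. The part of these cells in the results was not tested.

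Markers of cycling cells averaged 10.2 to 10.5 on the fetal and 9.62 to 9.69 on the adolescent arrays, 7.92 on adult replicate 1, 5.77 and 5.75 on the other adult arrays and 5.36 to 6.42 on the aged arrays. All 7 fell in adult against adolescent cells. Sema6b, Plxna1 and Ephb3 were on each adult and aged array below their own adolescent mean, with adult replicate 1 the highest of the adult arrays for all 3. In adolescent against fetal cells 1 of the 7 cycling markers fell, while Plxna1 rose (0.78), Ephb3 fell (-0.945) and Sema6b did not pass (-0.09). Adult replicate 1 was also the highest adult array for Efna1, Sema4b and Robo1, which did not pass in adult against adolescent cells. The part of cell division in the falls of Sema6b, Plxna1 and Ephb3 was not tested. Without adult replicate 1, all 12 calls of those 25 members in adult against adolescent cells and all 8 in aged against adult cells passed.

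**Figure D4:**
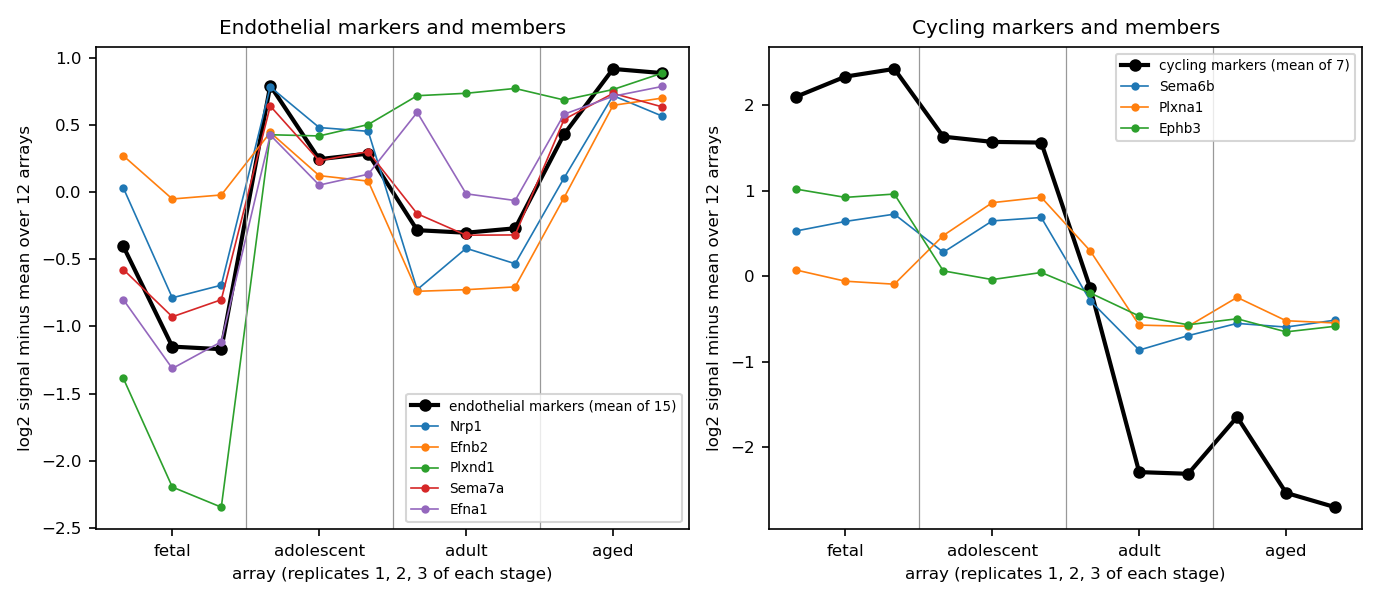
Mean of the endothelial markers (left) and of the cycling markers (right), in black, with guidance genes in colour, as log2 signal minus the mean over 12 arrays (vertical axis) on each array (horizontal axis, by stage). Thin lines join the points to guide the eye, the guidance genes were chosen after their values were seen, and on the left Nrp1 and Sema7a are, like the endothelial mean, lower on all 3 adult arrays than on every adolescent array.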

How the data were processed

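Per the submitters' processing notes, the authors summarised single-colour Affymetrix arrays by RMA in Expression Console 1.2.1.20. What they deposited is a log2 signal per probe set, used as given. The genome build is not given in the sources used here. Per the labels' protocols, RNA was amplified and labelled with biotin.

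Of 35556 probe sets, 21789 carried 1 symbol, 1621 several and 12146 were not named here. The brightest per gene was kept (5 members had several). All 12 arrays entered a single fit with a mean per stage in limma 3.58.1 (R 4.3.3), with 8 residual degrees of freedom and Benjamini-Hochberg adjustment over 19938 genes at 0.05. Rose and fell refer to genes that passed. The labels do not say whether replicates were separate pools, so p-values measure the spread between these arrays, which may be technical.

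Deviations from stage means at equal replicate numbers had r = 0.362, 0.317 and 0.239 in adult and adolescent, 0.176, 0.197 and 0.029 in adolescent and fetal, -0.435, -0.393 and -0.237 in aged and adult and -0.040, -0.282 and 0.098 in aged and fetal cells. Unequal numbers could match these (adolescent 2 with adult 3, r = 0.293). No label says what a number stands for, and the fit reported uses no block.

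Described members are those called by the F-test with stage means at least 1 apart. Of the partner list, up to 4 with the smallest p per comparison are named, with relatives of members. A fold against a stage whose arrays are all at or under the receptor level is a bound, taken against the higher of that level and the gene's own signal. The members, lists and alternatives were chosen with earlier results of these data known. The fit was checked on simulated arrays.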

Additional observations from a re-analysis of the deposited data

How the results depend on the processing

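No call changed direction under any alternative run, among the members that passed the F-test and the partners with the smallest p. The calls of Sema4a, Sema4c, Ephb6 and the cell type markers were not checked in this way. The 25 members with stage means at least 1 apart had 65 calls, and all passed with arrays centred on their medians, with quantile normalization repeated, with genes under 5 left out, with a trended robust variance and with replicate number as a block. Of the 65, 63 passed with probe sets averaged, 57 without the 3 arrays of raised receptor signal (chosen after seeing the data) and 56 with only the 2 stages compared. With replicates 2 and 3 averaged 40 passed (18 of 22, 1 of 12, 0 of 8 and 21 of 23 in the 4 comparisons, in the order of the report), with fewer arrays in the fit. Of 28 calls of the other 17 members, 24 passed with the replicate block and 7 with replicates 2 and 3 averaged, and of 28 calls of the named partners 25 and 15. 

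Averaging gave 27 members among the 4 stages and 19, 1 and 0 in the first 3 comparisons (12 at limma's unadjusted p under 0.05 in place of the 0), 3430 genes among the stages and 1472, 323, 2 and 4140 in the 4 comparisons, and 10, 1 and 0 partners in the first 3 (7 unadjusted in place of the 0). With only the stages compared, 2145 genes passed in adult against adolescent, and 2 members, 176 genes and 0 partners (14 unadjusted) in aged against adult. Without the 3 arrays, where a single adult array is assumed to vary like the other groups, 5904 genes passed in adolescent against fetal, 8 members, 1586 genes and 7 partners in adult against adolescent. For aged against adult these were 16 members, 1608 genes and 7 partners. Centring gave 23 partners in adult against adolescent. Partners in aged against adult numbered 7 with quantile normalization, 5 with dim genes left out and 1 with the replicate block. The block moved no other count by over 1.5 times.

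Leaving out 1 array gave 39 to 55 members and 6665 to 14192 genes among the stages. Members numbered 28 to 35, 9 to 25, 4 to 26 and 34 to 40 in the 4 comparisons, genes 2690 to 3330, 1876 to 10757, 214 to 7844 and 5893 to 6928, and partners 19 to 22, 9 to 31, 1 to 28 and 32 to 35. The highest values in adult against adolescent and aged against adult came without adult replicate 1. Changes near the receptor level are limited by background.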
